A study of Paeonia lactiflora with 9 samples.

Results

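Oleosins are the coat proteins of seed oil, and 6 unigenes of herbaceous peony (Paeonia lactiflora ‘Hangshao’, a cultivar) were annotated as oleosin (OLE) by the study: CL8973.Contig1_All, CL8973.Contig2_All, CL8973.Contig3_All, CL8973.Contig4_All, Unigene26649_All and Unigene23397_All. A unigene is a transcript sequence put together from the reads without a reference genome. The prefix CL marks a cluster of similar sequences, and each contig is 1 sequence of that cluster, so the 4 CL8973 contigs may be copies, alleles or splice forms of 1 gene or of several, whereas the other 2 stand alone. All 6 were found among the 125685 unigenes of the deposited table, which holds no further CL8973 contig. The table gives IDs only, so the name oleosin is the study's annotation and was not checked against a sequence here.

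Whole developing seeds, for which the methods name no treatment, were sequenced at 30, 60 and 90 days after flowering (DAF). There were 3 libraries at each stage, 9 libraries together. The labels call the libraries biological replicates. Since the methods place the harvest on the same plant and the same strain, the SDs below may leave out variation from plant to plant. In RNA from whole seeds, a larger share of oil-storing cells and more RNA per cell cannot be told apart. Expression is given as FPKM (fragments mapped to a unigene, estimated by RSEM and divided by its length in kilobases and by the library's mapped fragments), a level per length that can be compared between unigenes. The libraries summed to 651086 to 700670 FPKM, with 74702 to 83519 unigenes above 0, and read counts were not analysed here.

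The members were thus chosen by measured values. The study began from unigenes it had called with DESeq2 (fold change at least 2, adjusted p at most 0.05) in these same 9 libraries. Of these it listed the ones whose FPKM differed more than 2-fold between stages, and it removed entries with the same sequence. The stage differences of the members are therefore descriptions without a test. On the log2 ratio of stage means, where the study's limit is 1, the largest change of a member lay closest to the limit for Unigene23397_All at 1.81 and Unigene26649_All at 2.05 and farthest from it for CL8973.Contig1_All at 5.09. Oleosin-like unigenes outside that list were not analysed here.

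Plant seeds keep triacylglycerol (TAG) in oil bodies, droplets of TAG under a single layer of phospholipid. Oleosins sit in that layer with a long hydrophobic hairpin that reaches into the oil, keep droplets from fusing while the seed dries, and hold them small. Caleosin, a calcium-binding protein, shares the surface. The oil itself is made in the endoplasmic reticulum by acyltransferases, of which diacylglycerol acyltransferase (DGAT) and phospholipid:diacylglycerol acyltransferase (PDAT) perform the last step.

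Of the 4 similar contigs, CL8973.Contig3_All is the 1 for which the study designed a qRT-PCR assay, and it is also the contig with the steadiest level in the libraries described below. The 2 primers are shown because they fix which stretch of the cluster that assay reads, each written 5′ to 3′. Whether they also match the other 3 contigs was not analysed here, as the contig sequences were not held.
CL8973.Contig3_All forward primer: ttgaccactgggtttcttgcttcc
CL8973.Contig3_All reverse primer: caaactgctccgccttgtcctt

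Oleosin expression was lowest at 30 DAF. The 6 unigenes together had 913.8, 758 and 777 FPKM in the 3 libraries at 30 DAF, 8724, 4811 and 6134 FPKM at 60 DAF, and 8056, 8544 and 12840 FPKM at 90 DAF. No library at 60 or 90 DAF came near the 30 DAF libraries, whereas the ranges at 90 and 60 DAF overlapped. At 30 DAF their share of all FPKM of a library was 0.121% ± 0.0136. The share was 0.960% ± 0.278 at 60 DAF and reached 1.41% ± 0.367 at 90 DAF (SD, n = 3 each). The mean sum at 60 DAF was 8.03-fold that at 30 DAF, and the mean sum at 90 DAF was 1.5-fold that at 60 DAF and 12.0-fold that at 30 DAF.

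The make-up of the oleosin pool differed between stages. The CL8973 contigs supplied 49.9% ± 1.84 of the 6-unigene sum at 30 DAF, then 74.9% ± 4.94 at 60 DAF, then 86.9% ± 3.70 at 90 DAF, and the 3 ranges did not overlap (48.7 to 52.0%, 69.2 to 77.9% and 83.2 to 90.6%). The CL8973 sum was 445, 394 and 380.5 FPKM at 30 DAF, 6794, 3327 and 4756 FPKM at 60 DAF, and 6703, 7436 and 11634 FPKM at 90 DAF. The 2 single unigenes summed to 469, 364 and 397 FPKM at 30 DAF, 1930, 1484 and 1378 FPKM at 60 DAF, and 1353, 1108 and 1206 FPKM at 90 DAF. The cluster and the single unigenes thus stood level at 30 DAF, and at 90 DAF the cluster mean was 8591 ± 2661 FPKM beside 1222 ± 123 FPKM for the single unigenes (SD, n = 3 each).

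**Figure D1:**
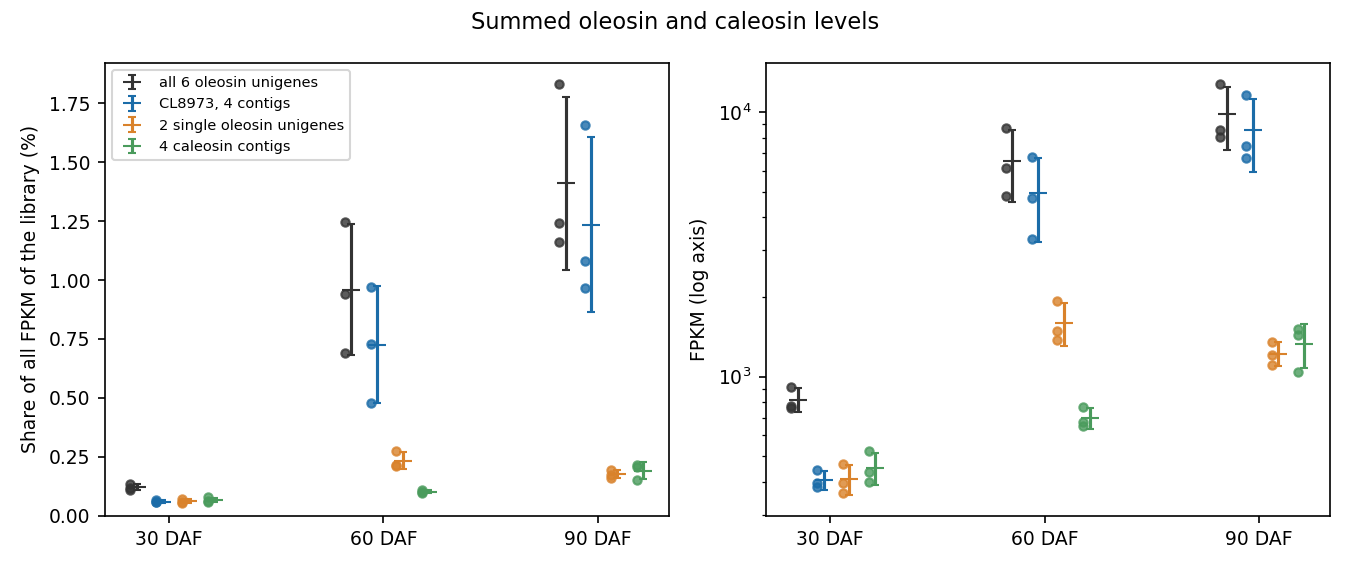
Share of all FPKM of the library (left, %) and FPKM on a log axis (right) at each stage, for all 6 oleosin unigenes, the 4 CL8973 contigs, the 2 single oleosin unigenes and the 4 caleosin contigs. Circles are libraries and bars the stage mean ± SD (n = 3). The oleosin share was 0.121% at 30 DAF, then 0.960% at 60 DAF, then 1.41% at 90 DAF, and the single unigenes were at 1597 FPKM at 60 DAF and 1222 FPKM at 90 DAF.

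CL8973.Contig3_All was the most regular contig of the cluster. It had 148, 124 and 164 FPKM at 30 DAF, 1998, 1652 and 1627 FPKM at 60 DAF, and 2693, 2981 and 3606 FPKM at 90 DAF, and no 2 stages overlapped. Its mean at 60 DAF was 12.1-fold that at 30 DAF, and its mean at 90 DAF was 1.76-fold that at 60 DAF. It ranked 45 to 52 among all unigenes of a library at 60 DAF and 12 to 19 at 90 DAF. At each stage it held near the same part of the cluster, 35.9% ± 6.24 at 30 DAF, then 37.8% ± 10.6 at 60 DAF, then 37.1% ± 5.28 at 90 DAF (SD, n = 3 each).

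CL8973.Contig1_All reached the highest levels of any member and also the lowest. It had 160, 156 and 23.0 FPKM at 30 DAF, 4367, 3.42 and 2421 FPKM at 60 DAF, and 2166, 2299 and 7098 FPKM at 90 DAF. The library of replicate 2 at 60 DAF lay below all 30 DAF libraries, while replicate 3 at 90 DAF stood highest. In that last library it was the 5th most abundant of all unigenes, and in replicate 2 at 60 DAF it ranked 14494.

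CL8973.Contig2_All was high where CL8973.Contig1_All was low. It had 46.5, 20.0 and 131 FPKM at 30 DAF, 11.1, 1638 and 513 FPKM at 60 DAF, and 1705, 1956 and 43.5 FPKM at 90 DAF. At 30 and at 60 DAF the library with the least CL8973.Contig1_All held the most CL8973.Contig2_All, and at 90 DAF the library with the most CL8973.Contig1_All held the least CL8973.Contig2_All. The stages overlapped in each pair.

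CL8973.Contig4_All was the least abundant contig at 60 and 90 DAF by stage mean. It had 90.6, 93.9 and 62.3 FPKM at 30 DAF, 417, 33.2 and 196 FPKM at 60 DAF, and 139, 201 and 886 FPKM at 90 DAF. It was lowest in the same libraries as CL8973.Contig1_All at all 3 stages, namely replicate 3 at 30 DAF, replicate 2 at 60 DAF and replicate 1 at 90 DAF. Its part of the cluster was 20.2% ± 3.73 at 30 DAF, then 3.75% ± 2.59 at 60 DAF, then 4.13% ± 3.03 at 90 DAF (SD, n = 3 each), with no 60 or 90 DAF library as high as any at 30 DAF.

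Unigene26649_All was the most abundant member in all 3 libraries at 30 DAF and had its peak at 60 DAF. It had 300.4, 211 and 240.1 FPKM at 30 DAF, 1165, 1016 and 934 FPKM at 60 DAF, and 704, 689.7 and 634 FPKM at 90 DAF. The 3 stages did not overlap, and all libraries at 90 DAF were below all at 60 DAF and above all at 30 DAF. Its mean at 60 DAF was 4.15-fold that at 30 DAF, and its mean at 90 DAF was 0.651 times that at 60 DAF.

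Unigene23397_All had 169, 153 and 156 FPKM at 30 DAF, 765, 467 and 444 FPKM at 60 DAF, and 649, 418 and 572 FPKM at 90 DAF. Libraries at 60 and 90 DAF overlapped with each other and were all above those at 30 DAF. Its mean at 60 DAF was 3.51-fold that at 30 DAF, and its mean at 90 DAF was 0.978 times that at 60 DAF. Within each library Unigene26649_All was higher than Unigene23397_All, by 1.08 to 2.17 times.

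**Figure D2:**
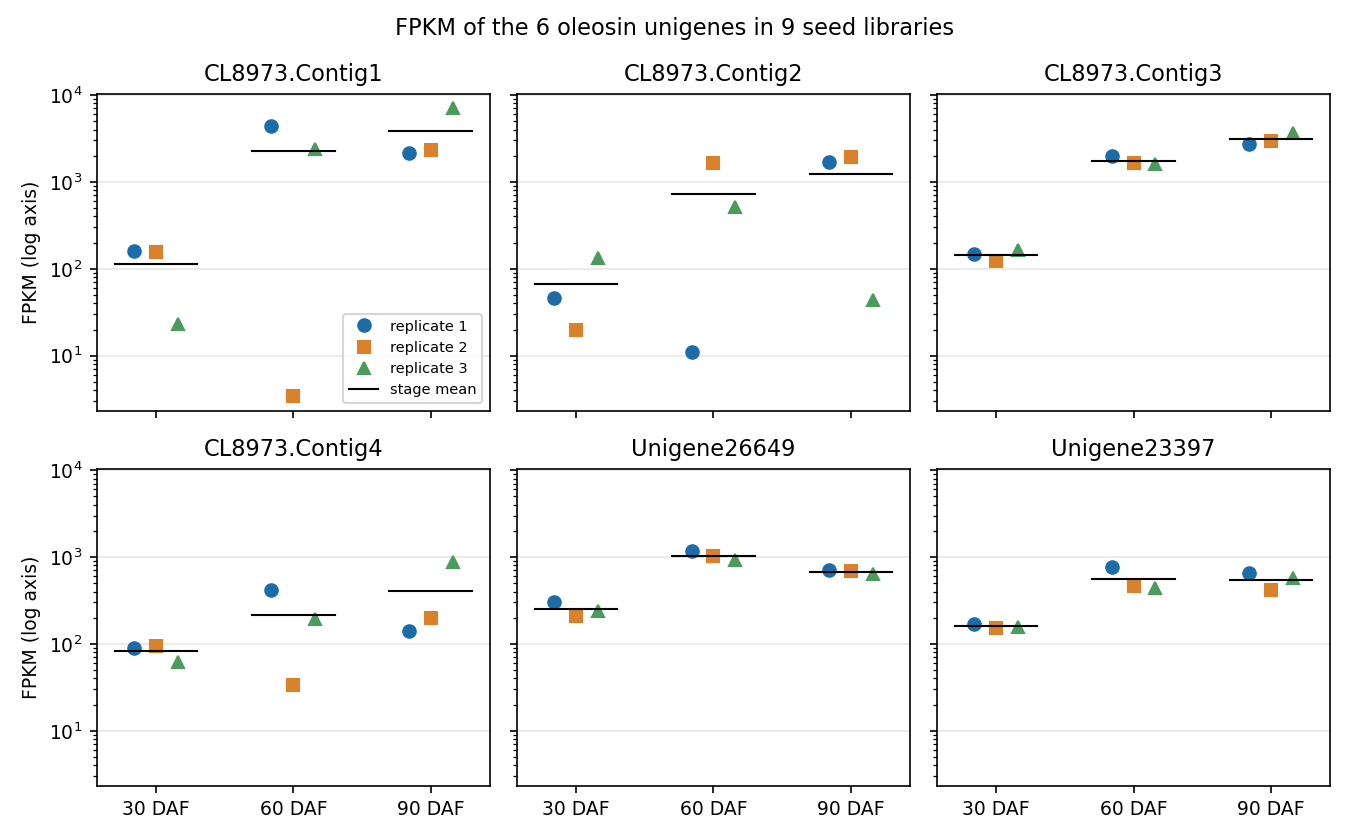
FPKM of each oleosin unigene (log axis) at 30, 60 and 90 DAF, with 1 symbol per replicate and a line at the stage mean. For CL8973.Contig3_All, Unigene26649_All and Unigene23397_All the highest replicate of a stage is at most 1.72-fold the lowest, reached by Unigene23397_All at 60 DAF. CL8973.Contig1_All spans 3.42 to 4367 FPKM within 60 DAF.

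By stage mean, the order at 30 DAF was Unigene26649_All (250.4 ± 45.7 FPKM), Unigene23397_All (159 ± 8.11), CL8973.Contig3_All (145 ± 20.0), CL8973.Contig1_All (113 ± 78.0), CL8973.Contig4_All (82.3 ± 17.4) and CL8973.Contig2_All (66.0 ± 58.2, SD, n = 3 each). From Unigene23397_All downwards, neighbours in that order differed by less than the larger of their SDs. At 60 DAF it was CL8973.Contig1_All (2264 ± 2186 FPKM), CL8973.Contig3_All (1759 ± 208), Unigene26649_All (1039 ± 117), CL8973.Contig2_All (720.7 ± 833), Unigene23397_All (559 ± 179) and CL8973.Contig4_All (215 ± 193, SD, n = 3 each), where neighbours differed by more than the larger of their SDs for CL8973.Contig3_All over Unigene26649_All and for Unigene23397_All over CL8973.Contig4_All. At 90 DAF the order was CL8973.Contig1_All (3854 ± 2810 FPKM), CL8973.Contig3_All (3093 ± 467), CL8973.Contig2_All (1235 ± 1039), Unigene26649_All (676 ± 36.8), Unigene23397_All (546 ± 118) and CL8973.Contig4_All (409 ± 414, SD, n = 3 each). Only CL8973.Contig3_All and CL8973.Contig2_All, among neighbours at 90 DAF, differed by more than the larger of their SDs, besides Unigene26649_All and Unigene23397_All by a narrow margin. The order within the cluster changed from library to library, with CL8973.Contig1_All first in 5 of the 9 libraries and CL8973.Contig3_All first in the other 4.

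The exchange between CL8973.Contig1_All and CL8973.Contig2_All was the largest variation among the members that stage did not account for. In FPKM share of the cluster, CL8973.Contig1_All took 35.9, 39.7 and 6.04% at 30 DAF, then 64.3, 0.103 and 50.9% at 60 DAF, then 32.3, 30.9 and 61.0% at 90 DAF. CL8973.Contig2_All took 10.5, 5.07 and 34.5% at 30 DAF, then 0.164, 49.2 and 10.8% at 60 DAF, then 25.4, 26.3 and 0.374% at 90 DAF. The 2 contigs were therefore near even only in replicates 1 and 2 at 90 DAF.

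The log2 ratio of CL8973.Contig1_All over CL8973.Contig2_All, with 0.5 added to each FPKM, was 1.77, 2.94 and -2.49 at 30 DAF, then 8.56, -8.71 and 2.24 at 60 DAF, then 0.34, 0.23 and 7.33 at 90 DAF. Within 60 DAF it spanned 17.3 log2 units, compared with 5.43 at 30 DAF and 7.10 at 90 DAF. For comparison, 1396 clusters of the assembly had at least 2 contigs with a mean of at least 10 FPKM, giving 3944 pairs of contigs. The median pair had a largest within-stage span of 1.02 log2 units, and the CL8973 pair ranked 3rd of all pairs and its cluster 2nd of all clusters. A span of at least 4 occurred in 15.1% of pairs and in 21.6% of clusters, so wide spans were not particular to oleosin. Such a span does not require that the order of the 2 contigs turned. In 130 clusters (9.31%) a contig was at least 4-fold above another in 1 library and at least 4-fold below it in another library of the same stage. The same pair of contigs did so at 2 or more stages in 23 clusters, of which CL8973 was 1, with CL8973.Contig1_All and CL8973.Contig2_All at 30 and 60 DAF and with CL8973.Contig2_All and CL8973.Contig4_All at 60 and 90 DAF.

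Summing the contigs removed most of that variation, but not all of it. CL8973.Contig1_All and CL8973.Contig2_All together had 206, 176 and 154 FPKM at 30 DAF. Their sum was 4378, 1641 and 2933 FPKM at 60 DAF, and 3871, 4254 and 7142 FPKM at 90 DAF. At each stage the library with the most CL8973.Contig1_All also had the highest CL8973 sum. The residual SD within stages on log2 (FPKM + 0.5) was 3.41 for CL8973.Contig1_All, 2.91 for CL8973.Contig2_All and 1.36 for CL8973.Contig4_All, and it was 0.39 for the CL8973 sum. The median over the 8410 unigenes with a mean of at least 10 FPKM was 0.25. CL8973.Contig3_All (0.19) and Unigene26649_All (0.18) were below this median, and Unigene23397_All (0.32) was above it, while 99.9% of those unigenes varied less than CL8973.Contig1_All. RSEM divides reads that map to several similar contigs between them by estimation, so the level of a single CL8973 contig is less certain than the sum. The part of such division in the exchange was not tested.

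**Figure D3:**
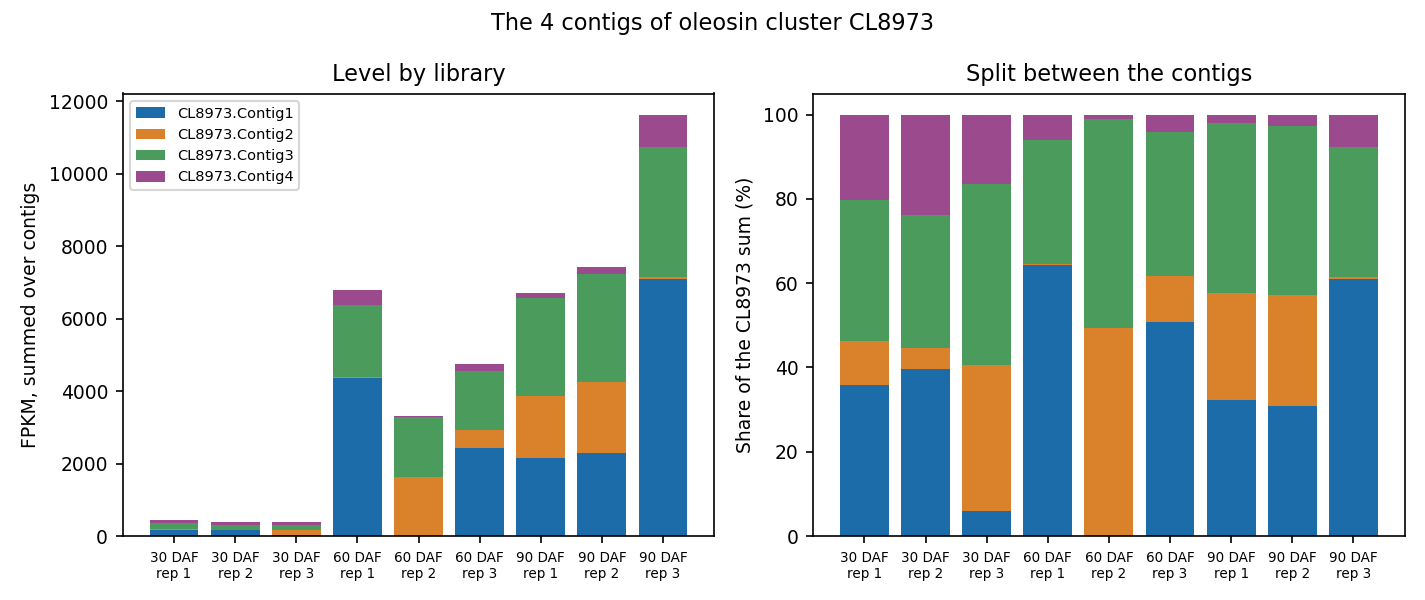
FPKM of the 4 CL8973 contigs stacked by library (left) and their split of the CL8973 sum in % (right), for the 9 libraries from 30 to 90 DAF. CL8973.Contig2_All takes 49.2% in replicate 2 at 60 DAF, where CL8973.Contig1_All takes 0.103%, while CL8973.Contig3_All takes 29.4 to 49.7% in all libraries.

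The pairs of contigs in other clusters whose log2 ratio followed that of CL8973.Contig1_All over CL8973.Contig2_All most closely, after the stage means were removed, were sought among 592 pairs with a span of at least 4. The highest Pearson's r by size over the 9 libraries were 0.90 for CL5872.Contig3_All over CL5872.Contig5_All, -0.88 for CL792.Contig1_All over CL792.Contig2_All and 0.87 for CL2376.Contig2_All over CL2376.Contig3_All. They were picked as the highest of many and share the libraries with CL8973, and they are given as a description. CL792.Contig1_All had 4.61, 0.35 and 6.04 FPKM at 30 DAF, 0.12, 47.1 and 7.97 FPKM at 60 DAF, and 112, 124 and 1.74 FPKM at 90 DAF, so its high and low libraries within 60 and 90 DAF were those of CL8973.Contig2_All. CL2376, annotated by the study as 3-oxoacyl-ACP reductase of fatty acid synthesis, had 1.44, 428 and 2.94 FPKM of CL2376.Contig3_All at 60 DAF, again with replicate 2 apart from the others.

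The stages were then compared across all unigenes with limma on log2 (FPKM + 0.5), for the 55192 unigenes that reached 0.5 FPKM in 3 or more libraries, which include all 6 oleosins. A unigene was called when its log2 change was at least 1 in size and its Benjamini-Hochberg adjusted p at most 0.05. The 3 comparisons share libraries, and the members were listed for changes in them, so nothing is read from the counts of members called. The median unigene changed by -0.31 in 60 against 30 DAF, 0.36 in 90 against 60 DAF and 0.06 in 90 against 30 DAF.

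In 60 against 30 DAF, 3 of the 6 oleosins were called higher at 60 DAF, beside 1.72% of all tested unigenes, and 0 lower, beside 6.33% (8.05% in either direction). These were CL8973.Contig3_All with a log2 change of 3.60 (SE 0.17), Unigene26649_All with 2.06 (SE 0.16) and Unigene23397_All with 1.76 (SE 0.24), the same 3 whose libraries did not overlap (5.84% of all tested unigenes had all 60 DAF libraries above all at 30 DAF, and 29.9% had them all below). The log2 changes of CL8973.Contig1_All, CL8973.Contig2_All and CL8973.Contig4_All were 2.04 (SE 2.33), 2.09 (SE 1.98) and 0.78 (SE 0.93). Without replicate 2 at 60 DAF the change of CL8973.Contig1_All was 5.28, that of CL8973.Contig2_All 0.62 and that of CL8973.Contig4_All 1.81, and 4 members were called. Without replicate 1 at 60 DAF CL8973.Contig2_All was at 4.19 and CL8973.Contig4_All at -0.00. The median change of the 6 was 2.05, and the CL8973 sum changed by 3.55 (SE 0.32).

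In 90 against 60 DAF, 0 of the 6 were called by limma, beside 27.6% of all tested unigenes in either direction, 18.2% higher and 9.41% lower. At an unadjusted p under 0.05 there were 2 members, and 46.1% of all tested unigenes. CL8973.Contig3_All changed by 0.81 (SE 0.17) with all 90 DAF libraries above those at 60 DAF, as in 32.5% of tested unigenes. Unigene26649_All changed by -0.61 (SE 0.16) with all 90 DAF libraries below those at 60 DAF, as in 14.9%. Both changes were smaller in size than the log2 change of 1 that a call requires, so the absence of a call does not mean no change. Relative to the median unigene these changes were 0.45 and -0.97. With median-of-ratios scaling, which brings the median change near 0, Unigene26649_All was called lower at -1.24 and CL8973.Contig3_All was at 0.18, whereas with quantile normalization CL8973.Contig3_All was called higher at 1.62. Unigene23397_All changed by -0.01 (SE 0.24), CL8973.Contig1_All by 3.25 (SE 2.33), CL8973.Contig2_All by 1.30 (SE 1.98) and CL8973.Contig4_All by 1.06 (SE 0.93). These 3 changes rested on single libraries: without replicate 2 at 60 DAF CL8973.Contig1_All was at 0.01 and CL8973.Contig4_All at 0.03, and without replicate 1 at 60 DAF CL8973.Contig2_All was at -0.80. The CL8973 sum changed by 0.81 (SE 0.32), by 0.18 with median-of-ratios scaling and by 1.47 with quantile normalization. The median of the 6 was 0.93.

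In 90 against 30 DAF, 3 of the 6 were called higher at 90 DAF, beside 13.7% of all tested unigenes, and 0 lower, beside 16.5% (30.2% in either direction). The log2 change was 4.41 (SE 0.17) for CL8973.Contig3_All, 1.75 (SE 0.24) for Unigene23397_All and 1.44 (SE 0.16) for Unigene26649_All. CL8973.Contig1_All changed by 5.29 (SE 2.33) and CL8973.Contig4_All by 1.84 (SE 0.93), and for both all 90 DAF libraries were above those at 30 DAF, so that 5 of the 6 did not overlap, beside 24.6% of all tested unigenes above and 23.5% below. CL8973.Contig1_All was called as the 4th member when replicate 2 at 60 DAF was left out or when only the 2 stages were fitted. CL8973.Contig2_All changed by 3.39 (SE 1.98) and overlapped through replicate 3 at 90 DAF. The median of the 6 was 2.62, and the CL8973 sum changed by 4.36 (SE 0.32).

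**Figure D4:**
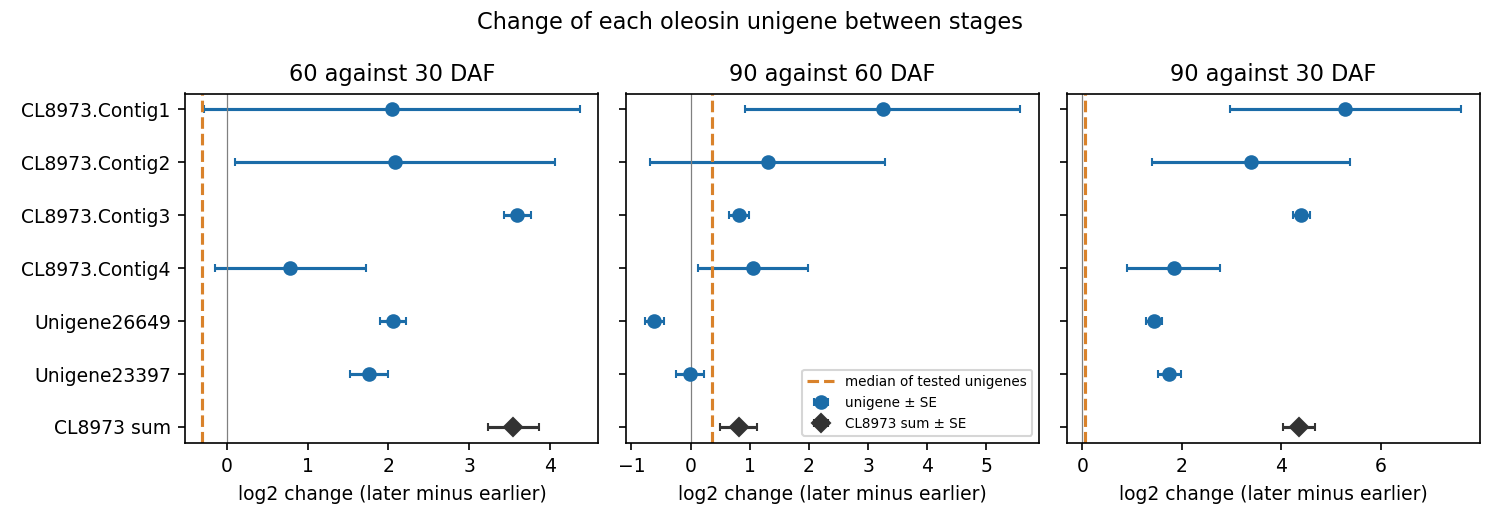
Log2 change (later minus earlier stage) of each oleosin unigene and of the CL8973 sum in the 3 comparisons, with SE bars from limma, beside the median of all tested unigenes (dashed). In 60 against 30 DAF the CL8973 sum lies at 3.55 and the median unigene at -0.31, and in 90 against 60 DAF Unigene26649_All lies at -0.61.

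Caleosin, the other coat protein listed, was summed over the 4 contigs on the study's list. Caleosin unigenes outside that list, including any other contig of their cluster, were not analysed here. The ratios of oleosin to caleosin below therefore hold for the listed unigenes only. The 4 listed contigs, all of cluster CL6205, summed to 399, 435 and 523 FPKM at 30 DAF, 675, 766 and 647 FPKM at 60 DAF, and 1438, 1045 and 1515 FPKM at 90 DAF. Nearly all of this was CL6205.Contig10_All, with 436 ± 63.9 FPKM at 30 DAF, 673 ± 55.4 FPKM at 60 DAF and 1273 ± 259 FPKM at 90 DAF (SD, n = 3 each). The oleosin sum was 1.84 ± 0.411 times the caleosin sum at 30 DAF, 9.56 ± 3.32 times at 60 DAF and 7.42 ± 1.58 times at 90 DAF, so the ratios at 60 and 90 DAF differed by less than their spread. The mean caleosin sum at 60 DAF was 1.54-fold that at 30 DAF, and at 90 DAF it was 1.91-fold that at 60 DAF, beside 8.03-fold and 1.5-fold for oleosin.

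Of the 4 caleosin contigs, 0 were called in 60 against 30 DAF by limma, where CL6205.Contig10_All changed by 0.63 (SE 0.19). At an unadjusted p under 0.05 there were 2 in that comparison, beside 25.8% of all tested unigenes. In 90 against 60 DAF CL6205.Contig8_All was called higher (1.62, SE 0.22) and CL6205.Contig7_All lower (-1.43, SE 0.46), at levels of at most 3.61 FPKM for the second. In 90 against 30 DAF CL6205.Contig10_All (1.53, SE 0.19) and CL6205.Contig8_All (1.91, SE 0.22) were called higher. Of all tested unigenes 8.05%, 27.6% and 30.2% were called in either direction in the 3 comparisons. As with oleosin, these contigs were listed by the study for changes in the same libraries.

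Enzymes that build the TAG core, 17 unigenes on the study's list of which 15 were tested, were called in both directions. In 60 against 30 DAF 1 was called higher and 2 lower, in 90 against 60 DAF 5 higher and 3 lower, and in 90 against 30 DAF 7 higher and 6 lower, with median log2 changes of -0.05, -0.06 and -0.11. Beside these 3, 8 and 13 called of 15 stand the 8.05%, 27.6% and 30.2% of all tested unigenes, and these enzymes too were listed by the study for changes in the same libraries, so nothing is read from the counts. The DGAT unigene CL6160.Contig2_All had 3.37 ± 1.37 FPKM at 30 DAF, 4.41 ± 0.602 FPKM at 60 DAF and 8.88 ± 1.19 FPKM at 90 DAF (SD, n = 3 each), and was called higher in 90 against 30 DAF with a log2 change of 1.32 (SE 0.25). The PDAT unigene Unigene43934_All had 11.8 ± 0.552 FPKM at 30 DAF, 10.8 ± 0.566 FPKM at 60 DAF and 5.13 ± 0.963 FPKM at 90 DAF (SD, n = 3 each), and was called lower in 90 against 60 DAF (-1.02, SE 0.16) and in 90 against 30 DAF (-1.14, SE 0.16). The second PDAT unigene, CL14912.Contig1_All, was too low to be tested, with 0.18 FPKM at 30 DAF, 0.903 FPKM at 60 DAF and 0.297 FPKM at 90 DAF on average. The stage means of these 3 listed unigenes were thus below the lowest stage mean of an oleosin, 66.0 FPKM for CL8973.Contig2_All at 30 DAF. In replicate 2 at 60 DAF, however, CL8973.Contig1_All with 3.42 FPKM was below the DGAT unigene (5.10 FPKM). DGAT and PDAT unigenes outside the study's list were not analysed here, so the total level of these enzymes is not given.

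Lastly, the unigenes with the most similar course to the oleosins were sought by Pearson's r of log2 (FPKM + 0.5) over the 9 libraries, among 8404 other unigenes with a mean of at least 10 FPKM. The 9 libraries fall into 3 stages, so r mostly reflects the stage levels, and it is given as a description. For the CL8973 sum the closest were CL5027.Contig3_All (r = 0.994), Unigene16745_All (0.992) and Unigene44128_All (0.985), which have no name in the study's lipid metabolism list. Unigene16745_All had 1.30 ± 0.0971 FPKM at 30 DAF, 727 ± 279 FPKM at 60 DAF and 2845 ± 694 FPKM at 90 DAF, and Unigene44128_All had 64.0 ± 22.8, 1609 ± 312 and 3312 ± 488 FPKM at the same 3 stages (SD, n = 3 each). At 90 DAF both were thus near the mean of CL8973.Contig3_All (3093 ± 467 FPKM), whereas at 30 DAF both were below its mean of 145 FPKM. At 60 DAF, where CL8973.Contig3_All had 1759 ± 208 FPKM, Unigene16745_All was below it and Unigene44128_All lay within that SD. Within the lipid metabolism list the closest was Unigene20130_All, annotated as a lysosomal acid lipase or cholesteryl ester hydrolase (r = 0.963), at 6.06 to 14.7 FPKM by stage mean. The caleosin sum had an r of 0.851 with the CL8973 sum.

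For Unigene26649_All, with its peak at 60 DAF, the closest were CL12959.Contig1_All (r = 0.995), Unigene33675_All (0.981) and Unigene31096_All (0.975), and in the lipid metabolism list the acylglycerol lipase CL4943.Contig3_All (0.912). CL12959.Contig1_All had 8.93 ± 1.63 FPKM at 30 DAF, 94.6 ± 10.3 FPKM at 60 DAF and 51.1 ± 6.52 FPKM at 90 DAF, each with its SD over 3 libraries, and CL4943.Contig3_All averaged 12.0, 47.7 and 20.3 FPKM at the same stages. For Unigene23397_All the closest were Unigene30353_All (0.980), CL14375.Contig1_All (0.974) and CL14375.Contig2_All (0.972), and again Unigene20130_All (0.931) in the list. An r of at least 0.9 was reached by 191 unigenes with the CL8973 sum, 42 with Unigene26649_All and 79 with Unigene23397_All.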

How the data were processed

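Clean reads from 9 seed libraries (oligo(dT)-selected mRNA, Illumina) were assembled by the authors with Trinity and clustered with Tgicl, mapped to the unigenes with Bowtie2 and quantified with RSEM, and the authors deposited 1 FPKM value per unigene and library. The versions of these tools were not given in the sources used here. FPKM are already scaled for length and mapped fragments, read counts were not analysed here, and depth limits the precision of low values. Of the table, 9 lines without a unigene were left out. Libraries were assigned to stages by column name. The tables were read with Python 3.11.15, pandas 2.3.3, numpy 2.4.6 and matplotlib 3.10.9, and limma 3.58.1 in R 4.3.3 was fitted with a variance trend to all 9 libraries on log2 (FPKM + 0.5). The change of the CL8973 sum came from the same fit on FPKM summed over clusters (34193 features). The fit was tested on simulated data.

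The members and gene lists came from the study's supplementary lists and were chosen with earlier results of these data known. Named besides the members were the caleosin, DGAT and PDAT unigenes, the 3 unigenes closest to each profile by r with the closest in the lipid metabolism list, and the 3 contig pairs closest to the CL8973 split. Of the other TAG assembly unigenes only counts are given. Alternatives covered adding 0.1 or 1 before log2, dropping the filter or raising it to 1 FPKM, scaling by median of ratios, quantiles or equal totals, fits of 2 stages, with a replicate block, without a trend or with robust moderation, cluster sums, each library left out, an adjusted p of 0.01, stage medians, ratios of means, and a total without the 10 highest other unigenes.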

Additional observations from a re-analysis of the deposited data

How the results depend on the processing

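The counts of oleosins called stayed within 1.5 times under 64 of 66 alternatives. The exceptions were 90 against 60 DAF, with 1 member called under median-of-ratios scaling (Unigene26649_All, lower) and 1 under quantile normalization (CL8973.Contig3_All, higher), in place of 0. Leaving out single libraries gave 3 to 4 called in 60 against 30 DAF, 0 in 90 against 60 DAF and 3 to 4 in 90 against 30 DAF. With the replicate number as a block the counts were 3, 0 and 3. With FPKM summed over clusters they were also 3, 0 and 3, but out of 3 features, as CL8973 then counts as 1. Across the tested unigenes, samples with the same number did not deviate together (r of -0.16 to 0.13). The labels do not say whether equal numbers share a harvest or a preparation, and these r cannot show it.

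The log2 change of the CL8973 sum was 3.97 in 60 against 30 DAF and 0.18 in 90 against 60 DAF under median-of-ratios scaling, and 1.47 in 90 against 60 DAF and 4.85 in 90 against 30 DAF under quantile normalization. Leaving out single libraries gave 3.29 to 3.81, 0.55 to 1.07 and 4.12 to 4.52 in the 3 comparisons. Quantile normalization put the oleosin share of all FPKM at 90 DAF at 1.78%, and leaving out single libraries gave shares of 0.113 to 0.126% at 30 DAF, then 0.817 to 1.09% at 60 DAF, then 1.20 to 1.54% at 90 DAF. The median change of all unigenes in 90 against 60 DAF was 0.36, -0.04 with median-of-ratios scaling and 0.02 with quantile normalization, and the cause of the differences was not tested.

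Of the single members, the sign turned only where no call was made. Without replicate 1 at 60 DAF, CL8973.Contig2_All changed by -0.80 in 90 against 60 DAF and CL8973.Contig4_All by -0.00 in 60 against 30 DAF, and by stage medians CL8973.Contig1_All changed by -0.07 in 90 against 60 DAF. Unigene23397_All, near 0 in 90 against 60 DAF, was at 0.24 without replicate 1 at 60 DAF, 0.17 without replicate 2 at 90 DAF and 0.29 by stage medians. With 3 libraries per stage, no sample was tested for standing apart from its group.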
